A study of Mus musculus with 49 samples.

Results

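Chemically induced liver progenitors (CLiPs) were compared with freshly isolated hepatocytes (FH) across all genes, to record which hepatocyte programmes the cultured cells kept or lost and which progenitor genes they gained. The members are 6 of the 49 libraries of the series, 3 of CLiPs and 3 of FH, taken from the deposited table of UMI counts by their labels. All 6 came from wild-type C57BL/6J mice. FH were hepatocytes taken directly from the livers of 10-week-old animals by collagenase perfusion, with non-parenchymal and blood cells reduced by centrifugation and no culture step. CLiPs were adult hepatocytes grown as a monolayer in serum-free medium that held Y-27632 against ROCK, A-83-01 against the type I TGF-β receptor and CHIR99021 against GSK3, as the study's text describes them. The labels give no dose or time of culture for CLiPs, so culture, compounds and time cannot be told apart. The 5 libraries of dediHeps, which are hepatocytes dedifferentiated in a standard medium with EGF, were used as the nearest other cells. No label ties a library to its own animal or culture, so that p-values measure the spread between these libraries, which may be technical.

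Adult hepatocytes secrete most plasma proteins and carry out urea synthesis, bile acid synthesis, drug metabolism and glucose production, under a network of liver-enriched transcription factors that includes HNF4α, C/EBPα and the FOXA proteins. Liver progenitor cells, also called oval cells or ductal reactive cells, share genes with bile duct epithelium such as Sox9, Spp1 and the keratins Krt7 and Krt19. Hepatocytes that leave the liver usually flatten, build actin stress fibres and lose adult liver enzymes, and inhibition of ROCK, TGF-β receptors and GSK3 is used to let them proliferate.

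Library totals were 1211070 to 1523804 UMI counts in FH and 1936106 to 3872936 in CLiPs, and 14098 to 14970 genes had a count in FH against 15803 to 17757 in CLiPs. Levels are given as CPM, the counts of a gene per 1000000 counts of its library, scaled by the TMM method within the comparison, unless a share of the library total is named. The share of mitochondrial counts was at least 2.94% in every FH library and 1.20% to 1.99% in CLiPs. The UMI holds 6 bases, so that no gene can exceed 4096 counts in a library, and Alb, Ttr and the major urinary proteins came near that limit in FH, which makes their fold changes too small. CLiPs reached the limit as well, with highest counts of 4093, 4096 and 4085 in CLiP 1, 2 and 3, and CLiP 2 had the most genes close to it. The limit lies at a lower CPM in the larger CLiP libraries, so that their highest levels may be too low. Library CLiP 3 stood apart for hepatocyte genes, as described below, and FH 1 and CLiP 2 deviated from their groups together (r = 0.61 across genes, which are not independent replicates). The deviations of these libraries followed the GC content of the transcript ends, with a Spearman correlation across 10424 genes of -0.40 for FH 1 and -0.24 for CLiP 2 against 0.24 for CLiP 3, and the part of this in the results was not tested. Without both FH 1 and CLiP 2, a setting chosen after seeing the data, 2619 genes were called in place of 2557.

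Genes were called when the FDR of edgeR's quasi-likelihood test was under 0.1 and the log2 fold change over 2 in size, the thresholds of the study. Of 10445 genes tested, 1371 were higher in CLiPs (13.1%) and 1186 were lower (11.4%), and the median log2 fold change was 0.18. These shares are the ones to set beside the counts of each list below. Scaling by library totals alone gave 2169 higher and 889 lower and moved that median to 0.88, and the direction of the lists below should be read against this shift. Of the genes called higher, 172 had no count in FH, and 95 of those called lower had no count in CLiPs. Genes near 0 in 1 group passed the filter through the other group. For a list that holds many such genes, the count called is not evidence for the list as a whole. A fold against a group without counts is given as at least the ratio to 3 counts over that group, and with 1 to 3 counts it is given with its 95% counting interval, which covers counting error only.

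The labels were checked against marker genes. FH held no count of Krt19, Epcam, Afp or Igf2, and every FH library had over 1000 CPM of Cps1 and Cyp3a11. The CLiP libraries had 0 counts of the Kupffer cell genes Clec4f and Adgre1, the leukocyte gene Ptprc and the sinusoidal endothelial gene Clec4g. These were present in FH with 131, 31, 11 and 426 counts in all. CLiPs carried some hepatocyte and some biliary markers, with 189, 343 and 1305 CPM of Alb and 900.2, 493 and 947 CPM of Sox9 in CLiP 1, 2 and 3. Other markers of both kinds were low or absent. Cyp2e1 had no count in CLiPs, Cps1 and Cyp3a11 were far below FH, and Krt19 was at 18.6, 17.7 and 4.97 CPM. Some hepatocyte and some biliary genes were thus present in the same cultures, and bulk libraries do not show whether the same cells held both. In bulk RNA, fewer cells of a type and less RNA per cell cannot be told apart, and this holds for every gene below.

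**Figure D1:**
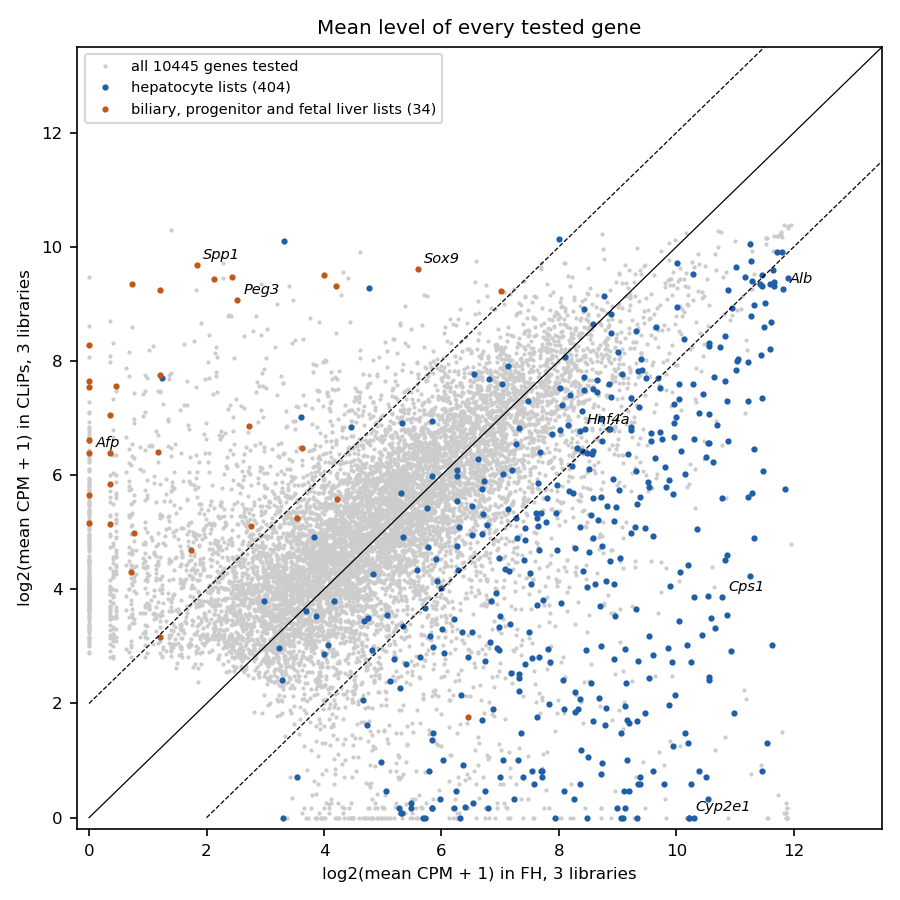
Mean level of each tested gene in FH (horizontal) and CLiPs (vertical), as log2(mean CPM + 1) over 3 libraries each, with all 10445 tested genes in grey, hepatocyte lists in blue and biliary, progenitor and fetal liver lists in orange. The solid line marks equal means and the dashed lines a difference of 2 on the log2 scale. Most hepatocyte genes lie below the lower dashed line, and most biliary and fetal genes lie above the upper line, at or near 0 in FH.

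Promoters of 5 genes that stand for the lost, the regained and the induced programmes are shown first, so that the letters read by liver and culture-responsive factors can be seen beside the levels. They were taken from RefSeq on GRCm38.p6 and hold the 150 bases before the start of transcription, 5′ to 3′ on the strand of the gene. Capitals mark, for each gene, the only match of 1 motif on either strand of the printed stretch, and matches of the other motifs searched are not marked. The motif is GTTAAT (an HNF1 motif) for Alb and Afp, CAAAGTCCA (an HNF4 direct repeat) for Cyp8b1, TGACTCA (AP-1) for Mmp7 and GGAATG (TEAD) for Ankrd1. Where the match is on the opposite strand, the capitals are its reverse complement. Alb lies at chr5:90460720-90460869 on the plus strand, Afp at chr5:90490564-90490713 on the plus strand, Cyp8b1 at chr9:121916306-121916455 on the minus strand, Mmp7 at chr9:7691940-7692089 on the plus strand and Ankrd1 at chr19:36119845-36119994 on the minus strand.
Alb: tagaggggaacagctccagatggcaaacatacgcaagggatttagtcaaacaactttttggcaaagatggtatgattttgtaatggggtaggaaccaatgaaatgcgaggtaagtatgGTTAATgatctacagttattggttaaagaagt
Afp: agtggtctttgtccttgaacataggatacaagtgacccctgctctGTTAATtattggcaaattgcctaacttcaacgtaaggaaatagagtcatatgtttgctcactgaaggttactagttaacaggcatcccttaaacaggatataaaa
Cyp8b1: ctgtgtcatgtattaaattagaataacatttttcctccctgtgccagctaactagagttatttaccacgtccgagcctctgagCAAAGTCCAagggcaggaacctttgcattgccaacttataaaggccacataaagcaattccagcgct
Mmp7: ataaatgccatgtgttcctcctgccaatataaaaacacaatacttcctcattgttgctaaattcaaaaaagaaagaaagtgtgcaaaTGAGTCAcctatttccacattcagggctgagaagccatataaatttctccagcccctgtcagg
Ankrd1: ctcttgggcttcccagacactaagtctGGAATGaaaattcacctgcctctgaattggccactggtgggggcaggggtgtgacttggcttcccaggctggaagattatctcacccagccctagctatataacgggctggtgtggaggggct

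The HNF1 motif stood in 9.03% of the 853 promoters of genes called lower that matched a RefSeq entry, in 4.04% of the 1040 promoters of genes called higher and in 4.47% of all 7628 tested promoters, over a window from 250 bases before to 50 bases after the start. The HNF4 repeat stood in 1.76%, 0.577% and 0.498% of the same 3 sets, and in 0.477% of all 27025 RefSeq promoters of this length. The TEAD letters stood at near equal shares, 14.8% of the promoters called lower and 14.7% of those called higher, against 11.9% of all tested. AP-1 letters stood in 5.74% of promoters called lower, 4.13% called higher and 3.37% of all tested, and the cell cycle homology region TTTGAA in 14.8%, 8.75% and 11.4%. The shares of all RefSeq promoters were 7.20% for HNF1, 14.6% for TEAD, 5.17% for AP-1 and 18.1% for TTTGAA. These shares are a description, and a match does not show that a factor binds.

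Most hepatocyte genes were lower in CLiPs. Of 435 genes in 16 hepatocyte lists, 404 passed the filter on low counts. Of these, 275 were lower (68.1%, against 11.4% of all genes tested), 6 were higher and 123 were not called. The median log2 fold change was -3.39, against 0.18 for all genes. Summed over the lists, the hepatocyte genes took 214035, 234043 and 224323 CPM of the library total in FH 1, 2 and 3 and 34235, 36323 and 83793 CPM in CLiP 1, 2 and 3, and the groups did not overlap (exact two-sided permutation test, p = 0.1, the smallest that 3 against 3 allow). The 6 genes that were higher are Lcn2, Mt1, Mt2, Saa3, Abcc4 and Gstm5. Under scaling by library totals, 236 hepatocyte genes were lower.

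**Figure D2:**
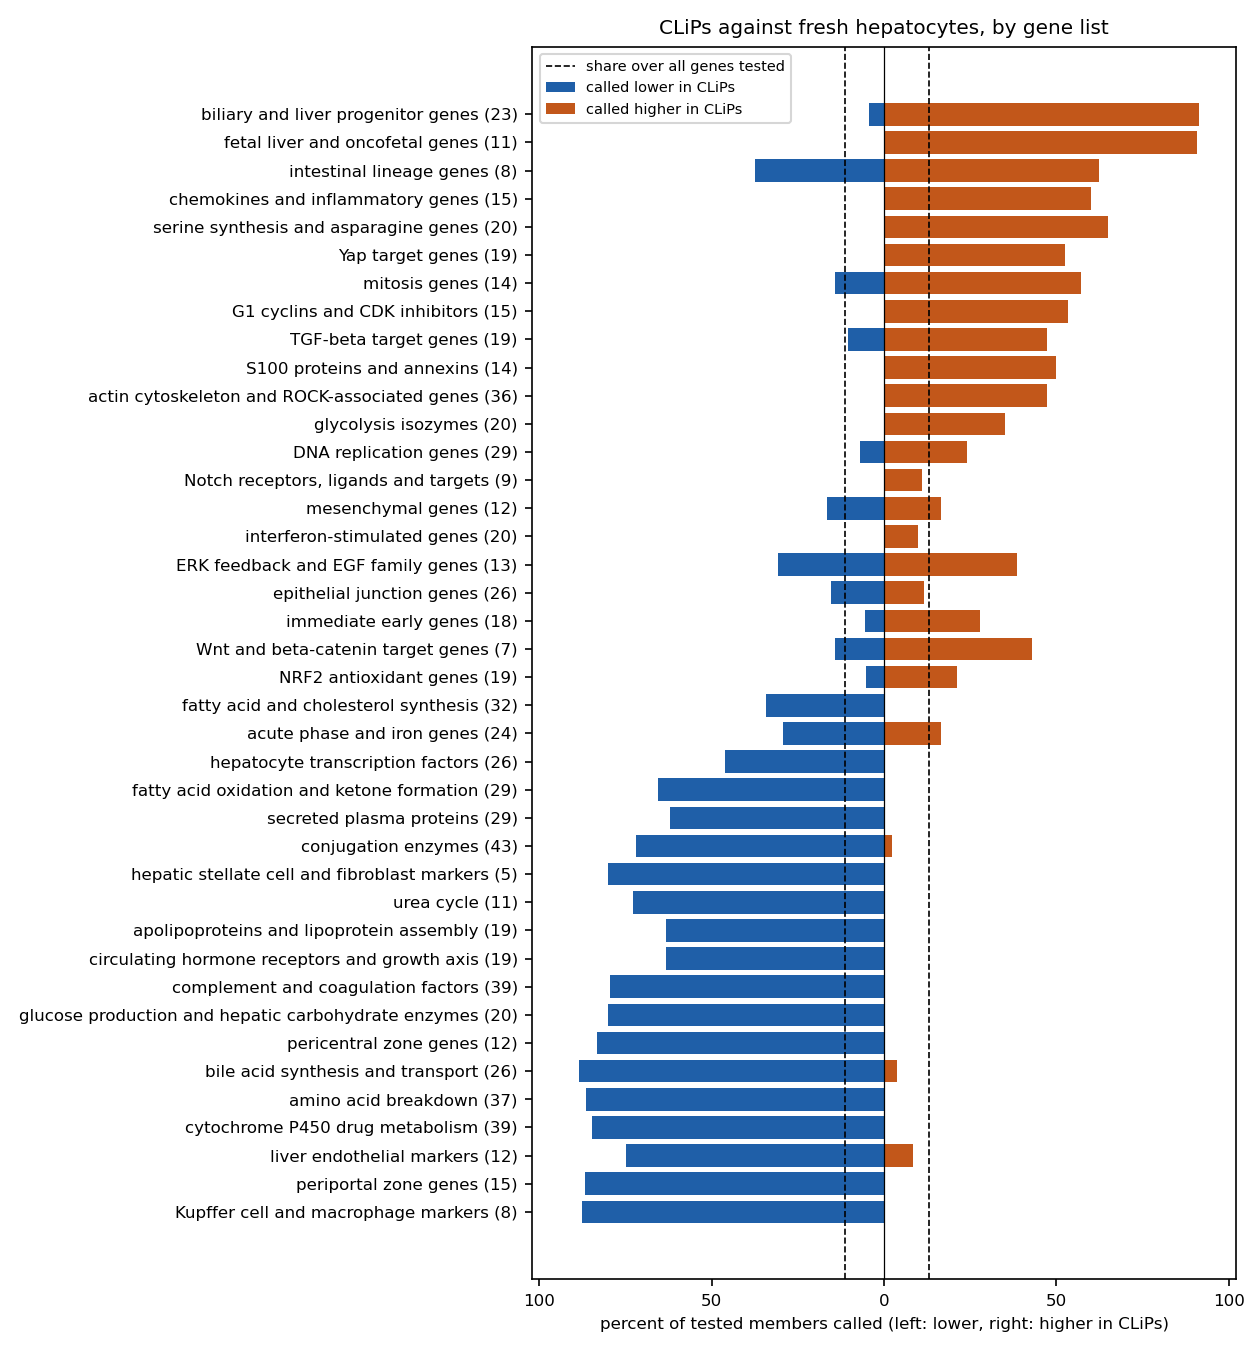
Share of the tested members of each gene list that were called lower (bars to the left) or higher (bars to the right) in CLiPs against FH, in percent, with the number of tested members in parentheses and lists ordered by median log2 fold change. Dashed lines mark 11.4% lower and 13.1% higher over all genes tested. Lists of hepatocyte function reach over 60% lower in most cases, and the biliary and fetal lists reach over 90% higher among members that passed the filter largely through the CLiP libraries.

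The transcription factors that define hepatocytes were uneven. Of 26 tested, 12 fell and 0 rose, with a median of -2.03. Cebpa, which activates metabolic liver genes, was at 309, 426 and 353 CPM in FH and 12.8, 17.7 and 42.4 CPM in CLiPs (log2 fold change -3.90 ± 0.57 SE, edgeR FDR 0.00138), and the groups lay far apart. Hnf4a, the central regulator of the hepatocyte state, stood at 401, 244 and 338 CPM in FH and 21.1, 56.1 and 249.5 CPM in CLiPs. CLiP 1 and 2 were well below every FH library, while CLiP 3 was just above the lowest of them, and the difference was not called (log2 fold change -1.59 ± 0.80 SE, edgeR FDR 0.171, 95% interval -3.39 to 0.21). Without CLiP 3, edgeR called it lower at -3.17 with an FDR of 0.00167, and 17 of the factors were then lower.

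Foxa2, a pioneer factor of foregut and liver, was at 113, 155 and 123 CPM in FH and 217, 195 and 167 CPM in CLiPs, and Hhex, needed for liver bud formation, at 95.8, 136 and 48.8 and 187, 184 and 282 CPM. With TMM scaling, though not with library totals, these were the only factors of the list with a fold change above 0, and each CLiP library exceeded all FH libraries, yet neither passed the call (Foxa2 0.57, edgeR FDR 0.298, and Hhex 1.22, edgeR FDR 0.0893). Prox1, a factor of early hepatoblasts and of adult liver, was at 568, 374 and 964 CPM in FH and 224, 156 and 719 CPM in CLiPs, with overlap and no call.

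The nuclear receptors that sense drugs and bile acids were among the deepest losses of the list. Nr1i3, the receptor CAR, was at 62.2, 155 and 102 CPM in FH, while CLiPs held 3 counts in all, an FH excess of 361-fold (95% counting interval 123 to 1761). Nr0b2, the bile acid-induced repressor SHP, had 125 counts in FH and 1 in CLiPs, a ratio of 418 (interval 73.7 to 16646). Dbp, a circadian activator of liver enzymes, fell from 37.5, 63.9 and 69.5 to 1.24, 1.12 and 3.06 CPM (log2 fold change -4.99 ± 0.61 SE, edgeR FDR 0.000638). Atf5, a liver-enriched stress factor, stayed uncalled at 911, 1498 and 1327 CPM in FH and 807, 409 and 993 CPM in CLiPs (log2 fold change -0.76 ± 0.51 SE, edgeR FDR 0.301).

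Secreted plasma proteins were reduced, and some, such as Alb, Ttr and Trf, remained readily detected in every CLiP library. The median log2 ratio of the tested genes to the FH mean was -6.61 in CLiP 1, -5.59 in CLiP 2 and -1.55 in CLiP 3. Of 29 tested, 18 fell and 0 rose, with a median of -2.89. Alb, the main plasma protein (GRCm38 chromosome 5, 90460897 to 90476602, plus strand), whose promoter is printed above, was at 3562, 4182 and 3122 CPM in FH and 189, 343 and 1305 CPM in CLiPs. All CLiP libraries were lower than all FH libraries, but CLiP 3 held several times the level of CLiP 1 and 2 (log2 fold change -2.56 ± 0.75 SE, edgeR FDR 0.0314). The call was lost without CLiP 1 (edgeR FDR 0.106) and under library totals (-1.95), and with a correction for UMI saturation the value was -3.06. Ttr, the thyroxine and retinol carrier, was at 2699.6, 4081 and 3232 CPM in FH and 872, 620.4 and 1393 CPM in CLiPs, below the fold threshold (log2 fold change -1.80 ± 0.52 SE, edgeR FDR 0.0301) unless UMI saturation was corrected (-2.10) or CLiP 3 was left out (-2.23). Trf, the iron carrier transferrin, was the mildest of the list at 1986, 2943 and 2464 CPM in FH and 694, 526 and 1373 CPM in CLiPs (log2 fold change -1.51 ± 0.54 SE, edgeR FDR 0.064), with a call only without CLiP 3.

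At the other end of that list stood Serpina6, which encodes the corticosteroid-binding globulin. It was at 510.5, 708 and 374 CPM in FH and had 0 counts in every CLiP library, so that FH were at least 1785-fold higher. Serpina3k, a serine protease inhibitor, was at 2189, 3327 and 2913 CPM in FH and 0.827, 0.93 and 487 CPM in CLiPs. CLiP 1 and 2 had almost none and CLiP 3 a substantial level, and the call was missing with all libraries in the edgeR test (FDR 0.144) and present without CLiP 3 (-11.62). With all libraries it was present by DESeq2 (-4.19), without a low-count filter (-3.99) and with all 49 libraries in 1 fit (-4.16). The number of plasma protein genes called lower was 28 without CLiP 3, 12 without FH 2 and 9 without CLiP 1.

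Apolipoproteins and lipoprotein assembly genes followed the same division. Of 19 tested, 12 fell, 0 rose and the median was -3.57. Apoa1, the main protein of HDL, was at 2256, 3423 and 3065 CPM in FH and 33.5, 43.5 and 1479.7 CPM in CLiPs, with CLiP 3 far above the other CLiP libraries. It was not called (log2 fold change -2.49 ± 1.29 SE, edgeR FDR 0.182), and without CLiP 3 it was called at -6.32, as were all 19 genes of the list. With all libraries it was called without a low-count filter (-2.37) and with all 49 libraries in 1 fit (-2.54). Apob, the structural protein of VLDL, fell from 808, 1248 and 939.7 to 48.8, 49.8 and 258 CPM (log2 fold change -3.07 ± 0.75 SE, edgeR FDR 0.0145). Apoe, which many cell types express, remained at 785, 563 and 1529 CPM in CLiPs against 2982, 4378 and 3298 CPM in FH, under the fold threshold (log2 fold change -1.89 ± 0.55 SE, edgeR FDR 0.0312), though just past it by RLE normalization or DESeq2, without CLiP 3 (-2.47) or without FH 1 (-2.02). Lipc, the hepatic lipase, had 286 counts in FH and 2 in CLiPs, a ratio of 478 (interval 131 to 3969).

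Complement and coagulation factors fell in 31 of 39 cases, with 0 higher and a median of -4.18. F2, prothrombin, was at 1236, 1891 and 1223 CPM in FH and 4.55, 18.4 and 212 CPM in CLiPs (log2 fold change -4.21 ± 1.24 SE, edgeR FDR 0.0313), again with the highest CLiP level in CLiP 3. C3, the central complement protein, was at 1916, 2880.3 and 2536 CPM in FH and 1105, 589.7 and 1475 CPM in CLiPs and was not called (log2 fold change -1.21 ± 0.52 SE, edgeR FDR 0.116). F11, coagulation factor XI, had 135 counts in FH and 1 in CLiPs. The uncalled genes at the mild end of this list, C2, Cfi, Cfb and C3, all belong to complement.

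Drug metabolism showed some of the deepest losses. Of 39 cytochrome P450 genes tested, 33 fell and 0 rose, with a median of -6.53. Cyp2e1, the ethanol-oxidising enzyme of pericentral hepatocytes, was at 1650, 1019 and 887 CPM in FH and had 0 counts in all CLiP libraries, so that FH were at least 4072-fold higher. Cyp3a11, the mouse counterpart of the main human drug-metabolising enzyme, was at 3246, 1164 and 1178 CPM in FH and 0.827, 1.86 and 29.4 CPM in CLiPs (log2 fold change -7.45 ± 1.43 SE, edgeR FDR 0.00457). Cyp1a2, a caffeine-metabolising enzyme, was at 978, 1797 and 1720.4 and 0, 0.186 and 13.4 CPM (log2 fold change -8.40 ± 1.65 SE, edgeR FDR 0.00507). Neither gene overlapped between the groups, and in both CLiP 3 was the highest of the CLiPs. Cyp2d10 was 1 of the 6 genes not called (edgeR FDR 0.169), with 968, 1749.9 and 2084 CPM in FH and 10.3, 7.06 and 615 CPM in CLiPs. It was called without CLiP 3 (-7.60) and, with CLiP 3 kept, without a low-count filter (-2.81) or with all 49 libraries in 1 fit (-2.98).

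Conjugation enzymes were lower in 31 of 43 cases, with a median of -3.04. Ugt2b1, a glucuronosyltransferase, fell from 659.6, 513 and 488 CPM to 0, 0.744 and 0.382 CPM (log2 fold change -10.12 ± 0.79 SE, edgeR FDR 0.000187). Glutathione transferases were milder, as Gstm1 showed with 2041, 2883 and 2559.8 CPM in FH and 562, 529 and 923 CPM in CLiPs, under the fold threshold (log2 fold change -1.89 ± 0.49 SE, edgeR FDR 0.0185). It was just past it by RLE normalization (-2.01), DESeq2 (-2.02) or the saturation correction (-2.07), without CLiP 3 (-2.27) or without FH 1 (-2.05). Gstm5, a transferase of low level in FH, rose from 9.87, 7.84 and 15.7 to 50.4, 40 and 298 CPM (log2 fold change 3.51 ± 0.85 SE, edgeR FDR 0.0137), and its value fell under the fold threshold without CLiP 3 (1.93). Reads of the closely related Gstm, Ugt2b, Cyp2c and Mup genes may have been split between paralogs by the counting.

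Bile acid genes fell in 23 of 26 cases, with a median of -5.99. Cyp7a1, the rate-limiting enzyme of bile acid synthesis, was at 111, 231 and 40.6 CPM in FH and 0, 0 and 1.91 CPM in CLiPs (log2 fold change -7.74 ± 1.24 SE, edgeR FDR 0.00207). Cyp8b1, which makes cholic acid precursors and whose promoter with the HNF4 repeat is printed above, was at 1431, 2216 and 2199.7 CPM in FH and 0.413, 0.186 and 19.1 CPM in CLiPs (log2 fold change -8.23 ± 1.62 SE, edgeR FDR 0.00507). The uptake transporter Slc10a1 was at 1597, 674 and 739 and 0, 0 and 10.3 CPM (log2 fold change -8.22 ± 1.70 SE, edgeR FDR 0.00641). In contrast Abcc4, a transporter of the basolateral membrane that exports bile acids, rose from 2.96, 1.12 and 0 CPM to 244, 271 and 109 CPM (log2 fold change 7.25 ± 0.86 SE, edgeR FDR 0.000574).

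Genes of the urea cycle and of amino acid breakdown fell deeply. Of 11 urea cycle genes 8 fell, and of 37 amino acid breakdown genes 32 fell, with medians of -3.49 and -6.47 and 0 genes higher. Cps1, the first enzyme of the cycle, was at 1803, 1809 and 1646 CPM in FH and 1.65, 1.67 and 37.5 CPM in CLiPs (log2 fold change -7.02 ± 1.34 SE, edgeR FDR 0.00449). Otc, the next step, was at 2580.2, 3511 and 2852 and 0, 0.186 and 4.2 CPM, and Arg1, the last, at 1759, 1114 and 1282 and 0, 0 and 24.5 CPM. All 3 genes had their highest CLiP level in CLiP 3, still far below FH. Glud1, a mitochondrial enzyme that also serves cells outside the liver, was milder at 1326, 926 and 830.4 CPM in FH and 415, 583 and 483 CPM in CLiPs and was not called (log2 fold change -1.06 ± 0.45 SE, edgeR FDR 0.112).

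Gls2, the liver glutaminase, fell from 396, 315 and 368 to 0.827, 0.93 and 1.53 CPM (log2 fold change -8.31 ± 0.56 SE, edgeR FDR 0.000187), evenly across the 3 CLiP libraries. Tat, the glucocorticoid-induced tyrosine aminotransferase, varied within FH at 1185, 52.7 and 83.6 CPM and was at 0, 0.558 and 5.73 CPM in CLiPs (log2 fold change -7.75 ± 1.71 SE, edgeR FDR 0.00889).

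Glucose production genes fell in 16 of 20 cases, with a median of -4.21 and 0 higher. Pck1, which commits carbon to gluconeogenesis, was at 2154, 1239 and 965 CPM in FH and 0, 0 and 1.91 CPM in CLiPs (log2 fold change -11.21 ± 1.36 SE, edgeR FDR 0.000631). G6pc, the last step of glucose release, fell from 431, 147 and 383 to 0, 1.3 and 6.88 CPM (log2 fold change -6.89 ± 1.13 SE, edgeR FDR 0.00225).

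Fatty acid and cholesterol synthesis had the median nearest to 0 of the 16 hepatocyte lists. Fatty acid oxidation genes fell in 19 of 29 cases (median -2.38) and fatty acid and cholesterol synthesis genes in 11 of 32 (median -1.33), which is 34.4% against 11.4% of all genes. Cpt1a, the gate of mitochondrial fatty acid uptake, was at 312, 438 and 451 CPM in FH and 160, 187 and 261 CPM in CLiPs and was not called (log2 fold change -0.98 ± 0.42 SE, edgeR FDR 0.117, 95% interval -1.94 to -0.02). Fasn, the fatty acid synthase, overlapped between the groups at 163, 488 and 382 and 159.6, 68.2 and 399 CPM (log2 fold change -0.72 ± 0.68 SE, edgeR FDR 0.466), and so did not pass the test. Scd1, a desaturase of lipogenic liver, fell from 2345, 3772 and 2219.6 to 43.4, 91.7 and 687 CPM (log2 fold change -3.34 ± 1.00 SE, edgeR FDR 0.0337), a call that was lost without FH 2 (edgeR FDR 0.105). Srebf2, the regulator of cholesterol synthesis, was higher in each CLiP library at 105, 88.3 and 164 CPM against 27.6, 24.6 and 64.6 CPM, under the fold threshold (log2 fold change 1.60 ± 0.51 SE, edgeR FDR 0.0432) but past it without FH 3 (2.18) and under scaling by library totals (2.25).

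Genes of both zones of the liver lobule fell. Of 12 pericentral genes tested 10 fell, and of 15 periportal genes 13 fell, with medians of -5.18 and -8.15. Oat, a pericentral aminotransferase, fell evenly to 299, 179 and 204 CPM in CLiPs from 1855, 2023 and 2325 CPM in FH (log2 fold change -3.19 ± 0.49 SE, edgeR FDR 0.00175). Glul, glutamine synthetase, was at 213, 249.8 and 147 CPM in FH and 38.9, 65.6 and 148 CPM in CLiPs and was not called (log2 fold change -1.27 ± 0.55 SE, edgeR FDR 0.115) unless CLiP 3 was left out (-2.04). Cyp2f2, a periportal enzyme, was at 2740.1, 3633 and 3062 and 0.413, 0.372 and 20.6 CPM (log2 fold change -8.80 ± 1.61 SE, edgeR FDR 0.00373), and Hal, histidine ammonia lyase, at 709, 560.2 and 667 and 0.413, 0.186 and 6.11 CPM (log2 fold change -8.22 ± 1.19 SE, edgeR FDR 0.00127).

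Hormone receptors and the growth axis fell in 12 of 19 cases, with a median of -4.07 and 0 higher. Ghr, the growth hormone receptor, was at 1147, 782 and 792 CPM in FH and 36, 40.2 and 86.4 CPM in CLiPs (log2 fold change -4.07 ± 0.57 SE, edgeR FDR 0.00109). Egfr, the receptor of EGF, fell from 562, 415 and 474 to 41.8, 64.1 and 73.8 CPM (log2 fold change -3.01 ± 0.45 SE, edgeR FDR 0.00148), whereas Met, the receptor of hepatocyte growth factor, was at 344, 446 and 516 CPM in FH and 754, 234 and 706 CPM in CLiPs with overlap (log2 fold change 0.38 ± 0.54 SE, edgeR FDR 0.639). Igfbp2, a binding protein of insulin-like growth factors, had 1575 counts in FH and 1 in CLiPs, a ratio of 5269 (interval 944 to 208229).

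The genes with the strongest evidence of loss lay outside most of these lists. Among the 6 called lower with the smallest p were Mup7, Mup9, Mup10 and Mup17, which encode major urinary proteins, male-biased pheromone carriers. Mup10 was at 3873, 4209 and 3177 CPM in FH and had 1 count in CLiPs, a ratio of 38523 (95% counting interval 6913 to 1521690). Because these paralogs are nearly identical, counts of single Mup genes are uncertain. Mup20, one of the more divergent members, was at 3958, 4528 and 3337 CPM in FH and 0.827, 5.58 and 74.1 CPM in CLiPs (log2 fold change -7.20 ± 1.50 SE, edgeR FDR 0.00657). Car3, carbonic anhydrase 3, was at 2832, 3000.2 and 2539 CPM in FH and 0.827, 0.744 and 1.15 CPM in CLiPs (log2 fold change -11.53 ± 0.70 SE, edgeR FDR 0.000187), with all CLiP libraries near the level of 3 counts.

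**Figure D3:**
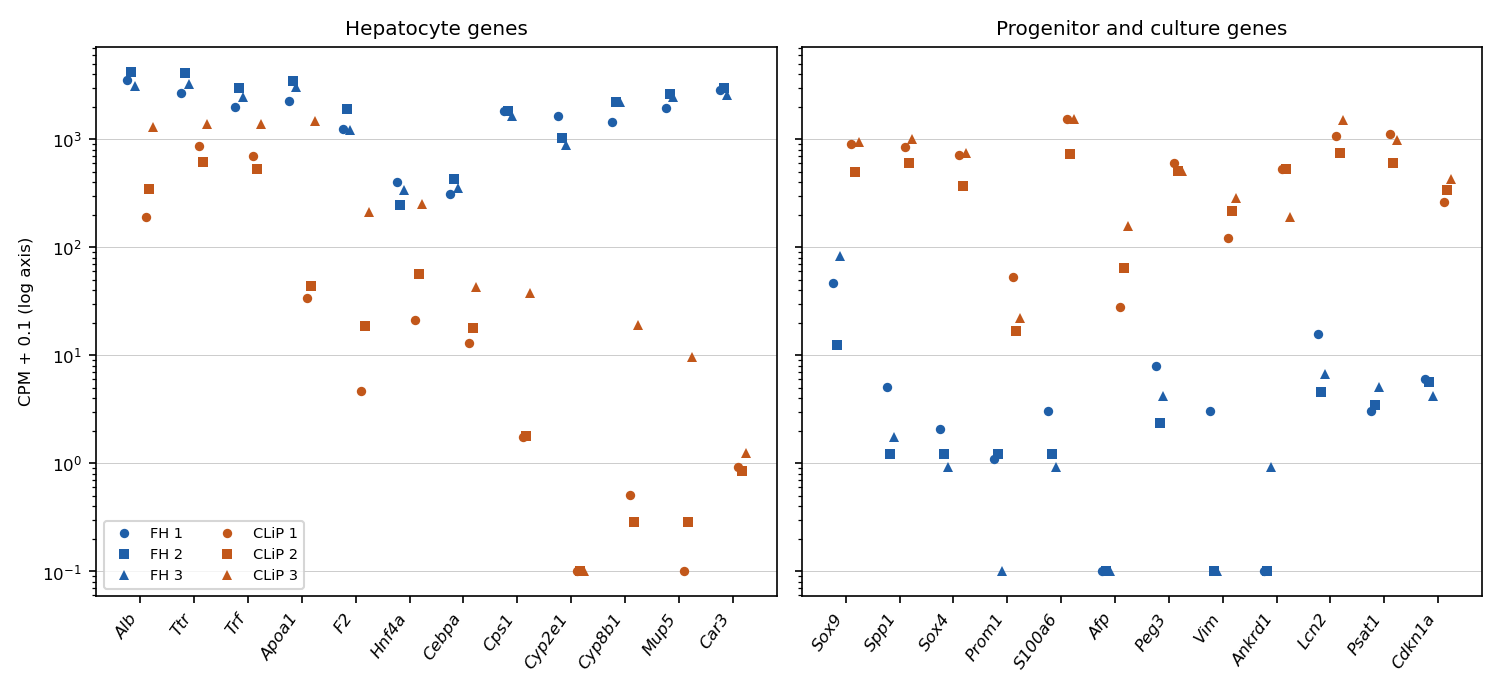
Level of 24 genes in each library as CPM + 0.1 on a log axis, with FH in blue and CLiPs in orange and the replicate shown by the shape of the point. Hepatocyte genes on the left range from Ttr and Trf, which lie close between the groups, to Cyp2e1, at 0 in all CLiPs, and the triangles of CLiP 3 stand above the other CLiPs for Apoa1, F2, Hnf4a and Cyp8b1. Progenitor and culture genes on the right lie higher in every CLiP library than in every FH library.

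Acute phase genes were called in both directions, those higher at near the share over all genes. Of 24 tested, 7 fell (29.2%, against 11.4% of all genes tested) and 4 rose (16.7%, against 13.1%), with a median of -1.95. The 4 that rose were Lcn2, Saa3, Mt1 and Mt2. Lcn2, the iron-siderophore binder lipocalin 2, went from 15.8, 4.48 and 6.62 CPM in FH to 1071, 741 and 1495 CPM in CLiPs (log2 fold change 6.93 ± 0.72 SE, edgeR FDR 0.000363). Its counts came near the UMI limit in CLiP 2 and CLiP 3, so that these levels are too low. Mt2, a metallothionein, was at 10.9, 24.6 and 43.1 and 634, 524 and 708 CPM (log2 fold change 4.56 ± 0.61 SE, edgeR FDR 0.000958), and Mt1 at 68.1, 332 and 369 and 1323, 694 and 1372 CPM (log2 fold change 2.14 ± 0.68 SE, edgeR FDR 0.0428), the latter called in only part of the settings, with an FDR of 0.107 without CLiP 1 and 0.108 without FH 2, and a log2 value under 2 without FH 1 or CLiP 3. Orm1, an orosomucoid, was at 568, 896 and 801 CPM in FH and 0.827, 0.186 and 316 CPM in CLiPs, where CLiP 3 stood far above CLiP 1 and 2, and Hp, haptoglobin, at 1228, 2551 and 1880.1 and 225, 291 and 1304 CPM. Neither was called with all libraries in the edgeR test, although Orm1 was without a low-count filter (-2.72) and with all 49 libraries in 1 fit (-2.89). Both were called without CLiP 3 (-10.73 and -2.95), when 14 acute phase genes were lower. Without CLiP 1, FH 1 or FH 3 that number was 4, and without FH 2 it was 3.

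CLiP 3 was thus the least changed of the CLiP libraries for hepatocyte genes. It held the highest CLiP level for 79.2% of the 404 tested hepatocyte genes, against 39.0% of all tested genes. The median log2 ratio of these genes to the FH mean was -5.01 in CLiP 1, -4.57 in CLiP 2 and -2.57 in CLiP 3. In CLiP 1, 73 of the genes were at 0.25 of the FH mean or more, in CLiP 2 77 and in CLiP 3 153, while 178, 165 and 63 genes were below 0.01 of it. The number of hepatocyte genes called lower ran from 239 without FH 2 to 336 without CLiP 3. Over the biliary, fetal, mesenchymal, annexin and actin lists, CLiP 3 held the highest CLiP level for 40.0% of tested genes.

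**Figure D4:**
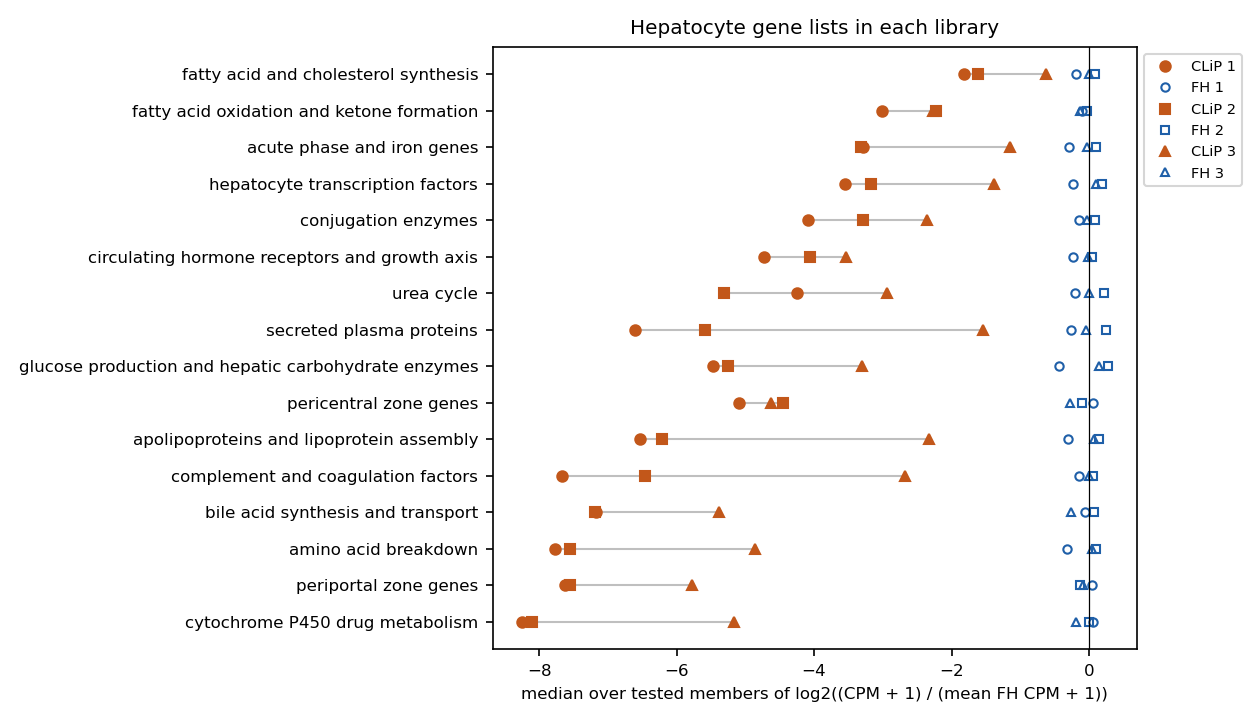
Median over the tested members of each hepatocyte list of log2((CPM + 1)/(mean FH CPM + 1)), one row per list, with CLiP libraries as filled orange points and FH libraries as open blue points. Over all hepatocyte lists together the medians are -5.01, -4.57 and -2.57 for CLiP 1, 2 and 3. CLiP 3 lies nearest to FH in most rows, and the FH libraries cluster at 0.

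Most of the biliary and liver progenitor genes that could be tested rose. Of 34 listed genes, 23 passed the filter, of which 21 rose (91.3%, against 13.1% of all genes tested), 1 fell and 1 was not called. Since most of these genes are near 0 in FH, they passed the filter through the CLiP libraries, and the count is not evidence for the list as a whole. The summed level was 150.4, 135 and 188 CPM of the library total in FH and 9141, 6339 and 6920.2 CPM in CLiPs, with no overlap (exact permutation test, two-sided p = 0.1, the smallest possible). Sox9, the transcription factor of bile ducts and of hybrid periportal hepatocytes, rose from 46.4, 12.3 and 83.6 CPM to 900.2, 493 and 947 CPM (log2 fold change 4.03 ± 0.74 SE, edgeR FDR 0.00364). Spp1, osteopontin, was at 4.94, 1.12 and 1.66 CPM in FH and 851, 599 and 1001 CPM in CLiPs (log2 fold change 8.28 ± 0.73 SE, edgeR FDR 0.000229). Both genes were even across the CLiP libraries and far from FH.

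Sox4, which acts with Sox9 in duct development, rose from 1.97, 1.12 and 0.828 to 713, 366 and 744 CPM (log2 fold change 8.82 ± 0.69 SE, edgeR FDR 0.000187), one of the 6 gains with the smallest p. Prom1, the surface protein CD133 of liver progenitors, had 2 counts in FH and 276 in CLiPs, at 52.9, 16.7 and 22.2 CPM, a ratio of 41.3 (interval 11.3 to 342). Cd24a, another surface protein of progenitors, was at 765, 548 and 634 CPM in CLiPs with 2 counts in FH, a ratio of 965 (interval 267 to 7974).

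The keratins of bile ducts differed in depth. Krt7 was at 208, 143 and 211 CPM in CLiPs and had 1 count in FH, a ratio of 546 (interval 97.8 to 21560.5). Krt19 was low, at 18.6, 17.7 and 4.97 CPM in CLiPs with 153 counts in all against 0 in FH, and did not pass the filter, so that it has a lower bound of 15.2-fold and no test. Epcam, the epithelial adhesion molecule of ducts, had 97 counts in CLiPs and 0 in FH, at least 9.67-fold, also untested. The list thus holds strongly and weakly expressed duct genes in the same cultures.

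Mmp7, a metalloproteinase of injured ducts whose promoter with AP-1 letters is shown above, was at 102, 17.5 and 128 CPM in CLiPs with 1 count in FH (log2 fold change 7.79 ± 1.18 SE, edgeR FDR 0.0016), and CLiP 2 was the lowest. Cldn6, a claudin of embryonic epithelia, had 0 counts in FH and 337, 227 and 32.5 CPM in CLiPs, at least 211-fold, with CLiP 3 the lowest. The one gene of the list that fell was Aqp1, a water channel of bile ducts that sinusoidal endothelium also expresses, from 50.4, 118 and 92.7 to 2.48, 0.558 and 4.2 CPM (log2 fold change -5.23 ± 0.76 SE, edgeR FDR 0.00128), and the endothelial genes given below fell with it. Slc4a2, the anion exchanger of ducts, was at 18.8, 22.4 and 11.6 CPM in FH and 38.5, 74.2 and 27.9 CPM in CLiPs, under the fold threshold (log2 fold change 1.42 ± 0.53 SE, edgeR FDR 0.0745) but past it under library totals (2.17).

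Some fetal liver and oncofetal genes were present in CLiPs and absent from FH. Of 23 listed, 11 were tested, 10 rose and Grb10 was not called. As in the biliary list, most were near 0 in FH and passed the filter through the CLiP libraries, so that this count is not evidence for the list as a whole. Dlk1, Gpc3, Lin28b and Sall4 stayed at 1 to 22 counts over the 3 CLiP libraries. Afp, the fetal counterpart of albumin, which lies next to Alb and carries an HNF1 motif in its printed promoter, had 0 counts in FH and 28.1, 64.1 and 156 CPM in CLiPs, at least 81.9-fold. Igf2, the fetal growth factor, was at 49.6, 154 and 86.7 CPM in CLiPs and H19, the imprinted RNA beside it, at 42.6, 61.7 and 820.5 CPM, each with 0 counts in FH (at least 117-fold and 257-fold). CLiP 3 was more than 10 times the other CLiP libraries for H19 but not for Igf2. Peg3, an imprinted zinc finger gene, rose from 7.9, 2.24 and 4.14 to 595, 509 and 502 CPM (log2 fold change 6.79 ± 0.61 SE, edgeR FDR 0.000229), and Hmga2, a chromatin protein of fetal tissue, from 0, 2.24 and 1.66 to 324, 159 and 163 CPM (log2 fold change 7.33 ± 0.78 SE, edgeR FDR 0.000403).

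Epithelial junction genes were mostly not called. Of 26 tested, 3 rose, 4 fell and 19 were not called, with a median of 0.24, close to 0.18 for all genes. Cdh1, E-cadherin, was at 333, 249 and 147 CPM in FH and 579.7, 502 and 252 CPM in CLiPs with overlap (log2 fold change 0.87 ± 0.51 SE, edgeR FDR 0.235, 95% interval -0.28 to 2.02). Cldn3 was at 41.5, 49.3 and 73.7 and 40.1, 10.8 and 40.5 CPM (log2 fold change -0.86 ± 0.57 SE, edgeR FDR 0.293) and Ocln at 113, 78.4 and 108 and 70.3, 61.4 and 68.8 CPM (log2 fold change -0.58 ± 0.37 SE, edgeR FDR 0.28). The 3 CLiP libraries lay below all FH libraries for both of these tight junction genes, and the sign of Ocln turned under scaling by library totals (0.10). Intervals of -2.14 to 0.43 for Cldn3 and -1.43 to 0.27 for Ocln bound the change.

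Among the junction genes that rose were Dsp and Krt8, which encode a desmosome plaque protein and a keratin. Dsp went from 97.8, 89.6 and 108 to 389, 183 and 804 CPM (log2 fold change 2.22 ± 0.58 SE, edgeR FDR 0.0195). Krt8, at 128, 114 and 185 and 411, 298 and 1015 CPM, was just past the threshold (log2 fold change 2.01 ± 0.57 SE, edgeR FDR 0.0272) and was lost without CLiP 3, FH 1 or FH 2 (1.25, 1.92 and 1.87) and by RLE normalization (1.91), and Dsp fell under the fold threshold without CLiP 3 (1.48). The 4 that fell were Cldn1, Gjb2, Dsc2 and Ceacam1, and without CLiP 3 the number was 7. Ceacam1, an adhesion protein of the bile canaliculus, fell from 502, 1328 and 542 to 0, 0 and 13.8 CPM (log2 fold change -7.46 ± 1.72 SE, edgeR FDR 0.0108), and Cldn1 from 28.6, 14.6 and 13.2 to 0.827, 0 and 1.91 CPM (log2 fold change -4.49 ± 0.94 SE, edgeR FDR 0.00668). The gap junction gene Gjb2 was called with all libraries (log2 fold change -3.81 ± 1.38 SE, edgeR FDR 0.0671) and not without CLiP 1 or any 1 FH library, with FDRs of 0.106 to 0.135.

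Mesenchymal genes that could be tested showed no common direction. Of 26 listed, 12 were tested, 2 rose, 2 fell and the median was 0.69. The number that rose was 5 without a low-count filter and 6 with all 49 libraries in 1 fit. Summed over the list, the level was 1153, 766 and 833 CPM of the library total in FH and 1829, 2294 and 2176 CPM in CLiPs. These sums did not overlap (exact permutation test, two-sided p = 0.1, the smallest possible). Vim, the intermediate filament of mesenchymal and migrating cells, had 3 counts in FH and 121, 216 and 283 CPM in CLiPs, a ratio of 219 (interval 74.8 to 1063). Tpm1, a tropomyosin, rose from 30.6, 21.3 and 21.5 to 227, 317 and 109 CPM (log2 fold change 3.15 ± 0.52 SE, edgeR FDR 0.00234). Tgfbi, a matrix protein induced by TGF-β, had 0 counts in CLiPs and 29.6, 26.9 and 42.2 CPM in FH, at least 117-fold higher in FH. Col3a1, a fibroblast collagen, was at 71.1, 8.96 and 9.11 CPM in FH and 7.86, 0.186 and 2.68 CPM in CLiPs (log2 fold change -3.13 ± 1.18 SE, edgeR FDR 0.0781), a call that rested on FH 1 (-1.44 without it, edgeR FDR 0.387). Snai1 and Twist1, factors of epithelial to mesenchymal transition, had 0 counts in both groups, and Lamb1 and S100a7a stayed below the filter with 62 and 19 counts over all CLiPs. Without FH 1, 4 mesenchymal genes were higher.

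Some calcium-binding and actin genes rose. Of 14 S100 and annexin genes tested, 7 rose and 0 fell, with a median of 1.70. S100a6, which marks proliferating and progenitor cells, was at 2.96, 1.12 and 0.828 CPM in FH and 1524, 726 and 1524 CPM in CLiPs (log2 fold change 9.55 ± 0.80 SE, edgeR FDR 0.000187). Its counts came near the UMI limit in every CLiP library, so that the fold change is too small. The lower CPM in CLiP 2, the largest library, cannot be read as a lower level. S100a11 was at 2.96, 4.48 and 4.14 and 595, 599.7 and 896 CPM (log2 fold change 7.48 ± 0.58 SE, edgeR FDR 0.000187), and Anxa2, which links membranes to actin, at 4.94, 8.96 and 5.8 and 621, 389 and 942 CPM (log2 fold change 6.63 ± 0.63 SE, edgeR FDR 0.000262). The FH values of all 3 genes are those of a few counts per library. These genes passed the filter through the CLiP libraries, so that the count is not evidence for the list as a whole.

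Of 36 actin and ROCK-associated genes, 17 rose (47.2%, against 13.1% of all genes) and 0 fell, with a median of 1.62. The medium held a ROCK inhibitor, and its part in these levels was not tested. Flna, which cross-links actin, rose from 2.96, 1.12 and 3.31 to 323, 303 and 347 CPM (log2 fold change 6.97 ± 0.56 SE, edgeR FDR 0.000187), and Rhoc, a small GTPase upstream of ROCK, from 6.91, 7.84 and 9.11 to 334, 239 and 331 CPM (log2 fold change 5.23 ± 0.47 SE, edgeR FDR 0.000229). Vil1, the villin of microvilli, had 0 counts in FH and 24.8, 31.4 and 89.8 CPM in CLiPs, at least 46.2-fold. Myl9, a myosin light chain of contractile cells, was low in both, at 0, 0 and 6.62 and 4.96, 6.14 and 10.3 CPM, and was not called with all libraries (log2 fold change 1.53 ± 0.97 SE, edgeR FDR 0.274). Without FH 3, which held all of its FH counts, it was called at 7.15 with an edgeR FDR of 0.0278, and under library totals at 2.18.

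TGF-β target genes rose in 9 of 19 tested cases (47.4%, against 13.1% of all genes) and fell in 2 (10.5%, against 11.4%), with a median of 1.91. The medium also held a TGF-β receptor inhibitor, whose part was not tested. Tgfb2, a ligand of the family, had 0 counts in FH and 191, 202 and 166 CPM in CLiPs, at least 198-fold. Itgav, the integrin chain that activates latent TGF-β, rose from 47.4, 61.6 and 128 to 604, 205 and 640.1 CPM (log2 fold change 2.61 ± 0.62 SE, edgeR FDR 0.0123). Smad7, the feedback inhibitor, stayed under the filter at 1.97, 5.6 and 4.97 and 4.96, 4.28 and 3.82 CPM, and Skil was not called (log2 fold change 1.32 ± 0.52 SE, edgeR FDR 0.0906). The 2 that fell were Tgfbi and Bhlhe40, the latter from 91.8, 35.8 and 71.2 to 5.79, 12.6 and 21.4 CPM (log2 fold change -2.32 ± 0.60 SE, edgeR FDR 0.018), with a value of -1.95 without CLiP 1 and -1.67 under library totals.

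Wnt target genes were mostly too low to test, with 7 of 26 passing the filter. Ccnd1, Sox9 and Cd44 rose and Tbx3 fell, and the median was -0.02. A GSK3 inhibitor, which activates this pathway, was in the medium, and its part was not tested. Axin2, the general feedback target, was at 3.95, 2.24 and 0.828 CPM in FH and 0.827, 4.83 and 0.764 CPM in CLiPs, Lgr5 at 7.9, 3.36 and 1.66 and 1.65, 1.49 and 2.68 CPM, and Nkd1 had 7 counts in FH and 1 in CLiPs. None of these passed the filter, so that none was tested. Axin2 and Lgr5 overlapped between the groups, while Nkd1 had fewer counts in CLiPs although their libraries were larger. Tbx3, a target in pericentral hepatocytes, fell from 31.6, 13.4 and 46.4 to 0.413, 0.558 and 1.91 CPM (log2 fold change -4.98 ± 0.76 SE, edgeR FDR 0.00167), and Cd44, a hyaluronan receptor of progenitors, rose from 34.6, 13.4 and 4.14 to 956, 586 and 371 CPM (log2 fold change 5.20 ± 0.83 SE, edgeR FDR 0.00202). Ccnd1, cyclin D1, was at 62.2, 21.3 and 38.1 and 131, 317 and 82.5 CPM (log2 fold change 2.12 ± 0.62 SE, edgeR FDR 0.0312), and was lost without CLiP 2 (1.38), by RLE normalization (1.97) or without FH 2 (edgeR FDR 0.123).

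Yap target genes rose in 10 of 19 cases (52.6%, against 13.1% of all genes) and fell in 0, with a median of 2.57. Ankrd1, a sensor of stretch in muscle and a standard Yap readout, whose promoter with TEAD letters is printed above, had 1 count in FH and 529.7, 531 and 191 CPM in CLiPs, a ratio of 1386 (interval 249 to 54752). Ccn2, connective tissue growth factor, had 0 counts in FH and 21.1, 27.1 and 16.1 CPM in CLiPs, at least 23.8-fold. Ccn1, its relative, was at 62.2, 4.48 and 41.4 CPM in FH and 31.8, 98.9 and 21 CPM in CLiPs and overlapped (log2 fold change 0.49 ± 0.85 SE, edgeR FDR 0.7), and its sign turned without CLiP 2 or FH 2.

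Of 9 Notch genes tested, 1 rose (11.1%, against 13.1% of all genes) and 0 fell, and 2 rose without FH 1. The 1 that rose was Jag1, a ligand of bile duct formation, with 1 count in FH and 17.8, 40.5 and 13.4 CPM in CLiPs, a ratio of 88.5 (interval 15.8 to 3507). Notch1 was at 17.8, 5.6 and 9.11 and 16.5, 41.8 and 33.6 CPM (log2 fold change 1.50 ± 0.58 SE, edgeR FDR 0.0845, 2.01 without FH 1 and 2.19 under library totals), Notch2 at 31.6, 30.2 and 27.3 and 61.2, 55.8 and 37.5 CPM (log2 fold change 0.79 ± 0.41 SE, edgeR FDR 0.183), and the target Hes1 overlapped at 43.4, 16.8 and 48.8 and 21.9, 87.4 and 87.9 CPM (log2 fold change 0.85 ± 0.62 SE, edgeR FDR 0.344).

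Of 13 ERK feedback and EGF family genes tested, 5 rose and 4 fell. Those that rose were Ier3, Hbegf, Erbb2, Dusp4 and Dusp5, and those that fell were Egfr, Erbb3, Errfi1 and Phlda1. Hbegf, a ligand of EGFR, had 1 count in FH and 19.4, 17.7 and 72.6 CPM in CLiPs, a ratio of 99.2 (interval 17.7 to 3932). Erbb2, a receptor of the family, had 0 counts in FH and 18.2, 8.92 and 10.7 CPM in CLiPs, at least 12-fold, while Egfr fell as given above. Dusp6, an ERK phosphatase induced by the pathway, was at 229, 48.2 and 78.6 CPM in FH and 15.3, 74 and 19.1 CPM in CLiPs and was not called (log2 fold change -1.70 ± 0.77 SE, edgeR FDR 0.132), but it was without CLiP 2 (-2.78).

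Some genes of cell division and some inhibitors of the cycle rose in CLiPs. Of 58 tested in 3 lists, 23 rose (39.7%, against 13.1% of all genes) and 4 fell (6.90%, against 11.4%), and 37 rose without CLiP 1. Mki67, a marker of cycling cells, rose from 14.8, 6.72 and 3.31 to 22.3, 71 and 51.2 CPM (log2 fold change 2.55 ± 0.68 SE, edgeR FDR 0.0205), and Top2a, the topoisomerase of dividing cells, from 6.91, 3.36 and 1.66 to 31, 70.6 and 215 CPM (log2 fold change 4.73 ± 0.88 SE, edgeR FDR 0.00407), with CLiP 1 the lowest in both. Of 48 mitosis genes only 14 passed the filter. Of these, 8 rose (57.1%, against 13.1% of all genes) and 2 (Spc24 and Cks2) fell (14.3%, against 11.4%). Genes as low in FH as Mki67 and Top2a passed the filter through the CLiP libraries. The count is therefore not evidence for the list as a whole. The number that rose was 21 without CLiP 1, 18 without FH 1 and 5 without CLiP 3, and the cause was not tested. Spc24 and Cks2 were each called in only part of these settings, with FDRs up to 0.16 for Spc24 and 0.124 for Cks2. The summed mitosis level was 355, 324 and 258 CPM of the library total in FH and 421, 1124 and 1799.6 CPM in CLiPs, higher in all 3 CLiP libraries (exact permutation p = 0.1, two-sided, the smallest possible).

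DNA replication genes were less uniform. Of 29 tested, 7 rose (24.1%, against 13.1% of all genes) and 2 fell (6.90%, against 11.4%), Mcm10 among the latter, with a median of 0.87. The number that rose was 3 without FH 2 or without FH 3. Mcm2, a subunit of the replicative helicase, went from 4.94, 2.24 and 2.48 to 12, 16.7 and 15.3 CPM (log2 fold change 2.17 ± 0.53 SE, edgeR FDR 0.0139), and 1.98 without FH 2, under the threshold. Pcna, the sliding clamp, was at 54.3, 41.5 and 38.9 CPM in FH and 63.3, 122 and 46.6 CPM in CLiPs (log2 fold change 0.79 ± 0.47 SE, edgeR FDR 0.247). Mcm10, a factor of origin firing, went the other way, from 176, 314 and 238 CPM in FH to 1.65, 2.05 and 1.91 CPM in CLiPs (log2 fold change -6.96 ± 0.52 SE, edgeR FDR 0.000187), with the 3 CLiP libraries close to each other.

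Of 15 G1 cyclins and CDK inhibitors 8 rose and 0 fell, with a median of 2.02. Cdkn1a, the inhibitor p21, rose from 5.92, 5.6 and 4.14 to 262, 340 and 431 CPM (log2 fold change 6.04 ± 0.51 SE, edgeR FDR 0.000197). Cdkn2a, the locus of p16 and p19ARF, had 0 counts in FH and 32.3, 38.1 and 6.11 CPM in CLiPs, at least 29.8-fold, with CLiP 3 the lowest. Ccnd2, cyclin D2, was at 15.8, 14.6 and 14.1 and 841, 637 and 685 CPM (log2 fold change 5.60 ± 0.49 SE, edgeR FDR 0.000229). Trp53, the gene of p53, was called with all libraries (log2 fold change 2.34 ± 0.95 SE, edgeR FDR 0.0993) from 26.7, 3.36 and 8.28 and 30.6, 147 and 16.8 CPM, where CLiP 2 stood above the rest, and the value was 0.87 without it. That call was also absent without CLiP 1, FH 2 or FH 3 (edgeR FDR 0.106, 0.256 and 0.227) and by RLE normalization (edgeR FDR 0.117).

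Some isozymes of glycolysis that are typical of growing cells rose. Of 20 glycolysis genes 7 rose and 0 fell, with a median of 0.90. Hk1, the general hexokinase, rose from 1.97, 1.12 and 1.66 to 286, 157 and 201 CPM (log2 fold change 7.02 ± 0.57 SE, edgeR FDR 0.000187). Pkm, the pyruvate kinase of fetal and dividing cells, rose from 14.8, 14.6 and 15.7 to 762, 515 and 899 CPM (log2 fold change 5.59 ± 0.52 SE, edgeR FDR 0.00025). Ldha, lactate dehydrogenase A, was at 985, 941 and 1074 CPM in FH and 260.5, 287 and 655 CPM in CLiPs, lower in every CLiP library and under the fold threshold (log2 fold change -1.32 ± 0.51 SE, edgeR FDR 0.0867).

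Serine synthesis and asparagine genes rose in 13 of 20 cases (65.0%), with 0 lower and a median of 3.54. Psat1, a step of serine synthesis and one of the 6 gains with the smallest p, was at 2.96, 3.36 and 4.97 CPM in FH and 1122, 603 and 979.8 CPM in CLiPs (log2 fold change 7.87 ± 0.63 SE, edgeR FDR 0.000187). Phgdh, the first step, had 0 counts in FH and 27.7, 71.4 and 9.55 CPM in CLiPs, at least 47.4-fold, and Asns, asparagine synthetase, rose from 0.987, 0 and 3.31 to 38.9, 43.5 and 54.3 CPM (log2 fold change 4.82 ± 0.75 SE, edgeR FDR 0.00175). Slc7a11, the cystine importer, had 0 counts in FH and 12, 34.2 and 6.5 CPM in CLiPs, at least 22.9-fold.

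Of 19 NRF2 antioxidant genes, 4 rose (21.1%, against 13.1% of all genes) and 1 fell (5.26%, against 11.4%), with a median of -0.51. Those that rose were Hmox1, G6pdx, Abcc1 and Gpx3. Gpx3, a secreted glutathione peroxidase, had 0 counts in FH and 161, 141 and 869 CPM in CLiPs, at least 341-fold. Hmox1, heme oxygenase, rose from 14.8, 26.9 and 4.97 to 128, 207 and 174 CPM (log2 fold change 3.46 ± 0.62 SE, edgeR FDR 0.00326). Nqo1, a common readout of NRF2, had 6 counts in FH and 0 in CLiPs and could not be tested. Sod1 was the gene that fell (log2 fold change -2.01 ± 0.53 SE, edgeR FDR 0.0194), from 801, 1436 and 1349 to 298, 175 and 417 CPM, and its value was -1.71 to -1.97 without CLiP 2, CLiP 1, FH 2 or FH 3 and -1.35 under library totals.

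Immediate early genes rose in 5 of 18 cases (27.8%, against 13.1% of all genes) and fell in 1 (5.56%, against 11.4%), with a median of 0.24. Jun, an AP-1 subunit, was the one that fell, from 2369.8, 1845 and 2026 to 324, 328 and 769.6 CPM (log2 fold change -2.13 ± 0.54 SE, edgeR FDR 0.0165), and its value was -1.89 without CLiP 1, -1.90 without CLiP 2 and -1.50 under library totals. Klf6, an injury-induced factor, rose from 24.7, 6.72 and 13.2 to 151, 255 and 354 CPM (log2 fold change 4.08 ± 0.61 SE, edgeR FDR 0.0015). Egr1 was at 132, 221 and 176 CPM in FH and 16.5, 37.7 and 248 CPM in CLiPs, with CLiP 3 above all other libraries, and was called lower only without CLiP 3 among the settings that left out 1 library (-2.77).

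Of 24 chemokines and inflammatory genes listed, 15 passed the filter. Of these, 9 rose (60.0%, against 13.1% of all genes) and 0 fell, with a median of 4.31. Ccl2, Cxcl5 and Icam1 were near 0 in FH and passed the filter through the CLiP libraries. The count is therefore not evidence for the list as a whole. Ccl2, which attracts monocytes, rose from 5.92, 0 and 1.66 to 656, 679.7 and 480 CPM (log2 fold change 7.86 ± 0.91 SE, edgeR FDR 0.000533). Cxcl5, which attracts neutrophils, had 1 count in FH and 356, 392 and 208 CPM in CLiPs, a ratio of 1051 (interval 189 to 41527). Icam1, an adhesion molecule induced by NF-κB, rose from 3.95, 2.24 and 4.14 to 304, 241 and 302 CPM (log2 fold change 6.31 ± 0.51 SE, edgeR FDR 0.000187). These genes were even across the 3 CLiP libraries, though Ccl2 came near the UMI limit in CLiP 2, where its level may be too low. Cxcl1 was milder, at 45.4, 31.4 and 20.7 and 41.8, 78.8 and 203 CPM, and was not called (log2 fold change 1.73 ± 0.63 SE, edgeR FDR 0.0694), though it was without CLiP 1 (2.15), without FH 1 (2.03) or under library totals (2.35).

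Interferon-stimulated genes rose in 2 of 20 cases with 0 lower, which is 10.0% against 13.1% of all genes. The 2 were Ifit1, at 8.89, 15.7 and 18.2 CPM in FH and 85.2, 139 and 45.9 CPM in CLiPs (log2 fold change 2.65 ± 0.55 SE, edgeR FDR 0.00682), and Oasl2, at 0.987, 2.24 and 9.11 and 97.6, 98.3 and 11.1 CPM (log2 fold change 3.99 ± 1.00 SE, edgeR FDR 0.0156). The number was 6 without CLiP 3 and 5 without any 1 of the FH libraries. Without both FH 1 and CLiP 2, Ifit1 fell under the fold threshold (1.86).

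Intestinal lineage genes were examined because the study follows hepatocytes toward intestinal cells. Of 21 listed, 8 were tested, 5 rose (Vil1, Krt20, Cdh17, Gata6 and Tff3) and 3 fell (Fabp2, Lgals4 and Gata4). These are 62.5% and 37.5% of those tested, against 13.1% and 11.4% of all genes. Vil1, Krt20 and Cdh17 had 0 counts in FH and passed the filter through the CLiP libraries. The count is therefore not evidence for the list as a whole. Cdx2 and Cdx1, the intestinal master regulators, had 0 counts in both groups, as did Sis, Alpi and Olfm4. Cdh17, a cadherin of intestine and fetal liver, had 0 counts in FH and 19.8, 48.5 and 18.3 CPM in CLiPs, at least 35.6-fold, and Krt20 at 10.8, 32 and 7.26 CPM was at least 21.6-fold. Fabp2, a fatty acid carrier of enterocytes that FH also contained at 104, 173 and 134 CPM, had 1 count in CLiPs, a ratio of 1408 (interval 251 to 55755). Gata4 fell from 14.8, 13.4 and 29 to 2.07, 1.12 and 1.15 CPM (log2 fold change -3.73 ± 0.58 SE, edgeR FDR 0.00174) while Gata6 rose from 18.8, 14.6 and 19 to 72.8, 159 and 46.6 CPM (log2 fold change 2.41 ± 0.55 SE, edgeR FDR 0.0103). Gata6 was under the fold threshold without CLiP 2 (1.77), and Lgals4 was not called without CLiP 1, CLiP 2, FH 2 or FH 3, with FDRs up to 0.299.

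Most tested markers of Kupffer, endothelial and stellate cells were lower in CLiPs. Of 8 Kupffer cell genes tested 7 fell, of 12 endothelial genes 9 fell and 1 rose, and of 5 stellate cell genes 4 fell, with 11.4% of all genes tested lower. Many of these genes are near 0 in CLiPs and passed the filter through the FH libraries, so that the counts are not evidence for the lists as a whole. Over the whole lists, the summed level was 334, 324 and 109.6 CPM of the library total in FH and 138, 82.6 and 131 CPM in CLiPs for Kupffer cells, and 355, 389 and 348 and 78.5, 70.2 and 96.8 CPM for endothelium. The Kupffer sums overlapped between the groups (exact permutation test, two-sided p = 0.3), and the endothelial sums did not (p = 0.1, the smallest possible). The Kupffer sum in CLiPs was almost wholly Csf1r, at 103, 56.1 and 116 CPM against 22.7, 48.2 and 9.11 CPM in FH, under the fold threshold (log2 fold change 1.79 ± 0.62 SE, edgeR FDR 0.0582) with all libraries and past it without CLiP 2 (2.06) or FH 2 (2.53) and under library totals (2.47), while Clec4f, Adgre1, Marco, Timd4 and C1qa were at 0. The endothelial gene that rose was Flt4, from 3.95, 10.1 and 9.11 to 56.6, 38.7 and 60.8 CPM (log2 fold change 2.74 ± 0.52 SE, edgeR FDR 0.0043), while Stab2 was at 14.8, 23.5 and 24.8 and 0, 0.186 and 0.382 CPM.

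Of 6 mesothelial markers only 1, Msln, passed the filter, through the CLiP libraries, and it rose. Msln, mesothelin, had 0 counts in FH and 109, 140.4 and 67.6 CPM in CLiPs, at least 119-fold. The sum of the 6 listed genes was 0, 0.826 and 0 CPM of the library total in FH and 144, 198 and 126 CPM in CLiPs. In dediHeps this sum was higher still, at 462 to 1540 CPM. The defining markers Wt1 and Upk3b were at 0.827, 0.744 and 8.03 and 0.827, 0 and 22.9 CPM in CLiPs, highest in CLiP 3. The part of a mesothelial admixture in the biliary and mesenchymal gains was not tested. Fibroblast markers were lower, with Dcn at 72.1, 61.6 and 38.1 CPM in FH and 4.13, 0.744 and 11.5 CPM in CLiPs (log2 fold change -3.43 ± 0.84 SE, edgeR FDR 0.0146) and Pdgfrb at 1 count over each group.

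Against dediHeps, CLiPs differed in few genes. Of 11567 tested, 191 were higher in CLiPs (1.65%) and 161 were lower (1.39%), and the total of 352 was 109 without CLiP 1 and 224 without dediHep 2. The same CLiP libraries served in both comparisons. Of 278 hepatocyte genes tested here, 10 were higher (3.60%) and 9 lower (3.24%), with a median of 0.23 against -0.03 for all genes. The number higher was 4 without dediHep 2, 5 without dediHep 5, 6 without CLiP 1 or CLiP 3 and 23 without CLiP 2. It was 55 without a low-count filter and 94 with all 49 libraries in 1 fit, where more genes were tested. The study describes CLiPs as keeping more hepatocyte traits than dediHeps. It bases this on higher levels of several liver enzyme genes, with Mki67, Krt19 and Cdx2 lower, and reports Hnf4a as similar. Of 15 cytochrome P450 genes tested here, 2 were higher in CLiPs (13.3%) and 1 was lower (6.67%). With all 49 libraries in 1 fit, 12 were higher, and without CLiP 1 or dediHep 2 the number was 0. Alb was at 99.2, 661, 68.4, 817 and 1015 CPM in the 5 dediHep libraries and 249, 417 and 1729.5 CPM in CLiPs on the scale of this comparison, and the groups overlapped (log2 fold change 0.59 ± 0.88 SE, edgeR FDR 0.77, 95% interval -1.36 to 2.53), with the sign turning without CLiP 3. Hnf4a overlapped as well, at 144, 237, 394, 239.5 and 287 CPM in dediHeps and 27.8, 68.3 and 331 CPM in CLiPs (log2 fold change -0.87, edgeR FDR 0.55).

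Among the progenitor genes, Cldn6 separated the cells. It was at 444, 276 and 43 CPM in CLiPs and had 1 count over all dediHeps, a ratio of 2795 (95% counting interval 501 to 110456). Mmp7 had 0 counts in dediHeps and was at least 297-fold higher in CLiPs. Krt19 went the other way, at 105, 89.9, 545, 116 and 135 CPM in dediHeps and 24.6, 21.5 and 6.58 CPM in CLiPs, with every CLiP library below every dediHep library (log2 fold change -3.49 ± 0.78 SE, edgeR FDR 0.0485). This call was lost without CLiP 1 (edgeR FDR 0.166), without CLiP 3 (0.117) and with the replicate number as a block (0.155).

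Of 18 chemokines and inflammatory genes tested, 1 was higher in CLiPs and 0 were lower, with a median of -0.14. That gene was Icam1, which was at 46.5, 28, 22.7, 64.6 and 49.7 CPM in dediHeps and 401, 293 and 399 CPM in CLiPs (log2 fold change 3.11 ± 0.38 SE, edgeR FDR 0.00597). Of 21 interferon-stimulated genes tested, 9 were higher in CLiPs (42.9%, against 1.65% of all genes tested), and 15 without CLiP 3. Among the 9 was Ifit1, at 3.1, 1.08, 10.8, 7.6 and 7.61 CPM in dediHeps and 112, 169 and 60.8 CPM in CLiPs (log2 fold change 4.19 ± 0.60 SE, edgeR FDR 0.00947). Of 23 ERK feedback and EGF family genes, 7 were lower in CLiPs (30.4%, against 1.39% of all genes tested), and 1 without CLiP 1. The 7 included Dusp6, at 744, 477, 203, 279 and 343 CPM in dediHeps and 20.2, 90 and 25.3 CPM in CLiPs (log2 fold change -3.16 ± 0.64 SE, edgeR FDR 0.0345, and 0.156 without CLiP 1). The medium of dediHeps held EGF, and its part in these differences was not tested. Of 105 cell cycle genes 4 were lower and 0 higher, with a median of -1.36, and the 4 became 0 without CLiP 1 or dediHep 2, 1 without dediHep 3 or 5, and 7 to 9 without any other 1 library.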

How the data were processed

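RNA was extracted with ISOGEN II or an RNeasy kit, and 3′ ends of transcripts were sequenced by CEL-seq2. The authors deposited counts of unique molecular identifiers per Ensembl gene, made with the celseq2 pipeline, as whole numbers without normalization. The submitters' processing notes list bcl2fastq 2.20, Bowtie2 2.3.1 and HTSeq 0.6.0 with GRCm38. Of 46078 identifiers 45143 were matched to a symbol, and 0 columns of unknown samples were left out. Coordinates of single genes are those of the GRCm38 annotation.

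The 3 CLiP libraries were tested against the 3 FH libraries, and against the 5 dediHep libraries, with the quasi-likelihood F-test of edgeR 4.0.16 in R 4.3.3 (TMM, filterByExpr with a minimum count of 10 and a minimum total of 15, Benjamini-Hochberg over all genes tested). Summed levels over lists and other single values per library were compared by exact permutation in scipy 1.17.1, two-sided. A gene with 3 counts has 1.97 to 2.48 CPM in an FH library and 0.775 to 1.55 CPM in a CLiP library, and intervals and floors cover counting error only. Lists hold 1042 genes in all. Their members and the rule for naming genes (genes the study names for CLiPs or dediHeps, those 6 higher and 6 lower with the smallest p among called genes and, for each list, its first 3 members, the called members with the smallest p and the member with the highest CLiP level) were chosen with earlier results of these data known, and further genes were named after their values were seen. Some genes of the lists are not reported here. Alternatives were RLE normalization, library totals, DESeq2 1.42.0, no filter, a minimum of 5 CPM, all 49 libraries in 1 fit, UMI saturation, thinning to the smallest library, an FDR of 0.05 with log2 over 1, a replicate block and leaving out each library. Same-numbered CLiP and FH libraries deviated with r of -0.16, -0.30 and 0.39, so that the numbers do not pair them. Replicates differed beyond sampling noise (chi-square per degree of freedom 8.96 to 24.5 in FH and 25.8 to 68.0 in CLiPs), and none was a copy. The tests were run on simulated data first.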

Additional observations from a re-analysis of the deposited data

Results flagged for a closer look

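In the 5 dediHep libraries used for comparison, 1 library lay far from the other 4 for 2 genes, by the gap to its nearest neighbour relative to the range. Krt19 was at 545 CPM in dediHep 3, with the others between 89.9 and 135 CPM. Cldn6 was at 0.507 CPM in dediHep 5, which is a single count, with 0 in the others, so that any count would have set it apart. Of 8 genes examined in this way, chance marks about 1 in 20.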

How the results depend on the processing

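For CLiPs against FH, 2557 genes were called, and without a low-count filter 4103 were (2264 higher and 1839 lower). The other settings gave 2330 to 3781, and leaving out 1 library gave 2504 to 2934. Scaling by library totals moved the share of calls that were higher from 53.6% to 70.9%. For CLiPs against dediHeps, 352 genes were called, against 537 by DESeq2, 714 without a filter and 1169 with all libraries in 1 fit, and leaving out 1 library gave 109 to 488, with the lowest values of 109 without CLiP 1 and 224 without dediHep 2. The cause was not tested.

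With the replicate number as a block, 2644 genes were called against FH and 278 against dediHeps. It called Apoa1, Cyp2d10, Hnf4a, Hp, Orm1 and Serpina3k lower against FH and ended the calls of Ccnd1, Dsp, Krt8 and Trp53 there. The numbers do not pair the libraries, and CLiP 2 deviated with FH 1 (r = 0.61) and dediHep 1 (r = 0.63).

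Library totals also ended the calls of Cks2, Col3a1, Lgals4 and Spc24 and called Grb10 higher. Without both FH 1 and CLiP 2, a setting chosen after seeing the data, Alb, Ccnd1, Col3a1, Gata6, Gjb2, Ifit1, Jun, Mt1, Scd1 and Trp53 were not called and Cxcl1 was.

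Signs turned for genes whose groups overlapped or lay close. Ocln was at 0.10 (log2) under library totals. Leaving out 1 library turned Ccn1 (-0.46 to 1.08) and Alb against dediHeps (1.00 without CLiP 1 to -0.68 without CLiP 3). Depth limits genes with few counts in FH, where 3 counts in a library are 1.97 to 2.48 CPM.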

Other observations

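Grouped by the stem of their symbol, several gene families, some of whose members are also in the lists above, held many called genes. Carboxylesterases (Ces), which hydrolyse lipids and drugs, were lower in CLiPs for 13 of 13 tested genes, the Mup stem for 21 of 21 and glucuronosyltransferases (Ugt) for 11 of 11, although counts of such close paralogs are uncertain. Aldehyde dehydrogenases (Aldh) were lower for 10 of 14 and higher for 1, and hydroxysteroid dehydrogenases (Hsd) were lower for 8 of 12, with 11.4% of all genes lower. Annexins (Anxa) were higher for 5 of 8 and the Cdkn stem for 4 of 8. Families were picked after their values were seen and are given as counts, with no test.

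Genes called lower in CLiPs had transcript ends of a median GC content of 42.8%, genes called higher of 46.0% and genes not called of 44.2%, over the last 500 bases.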
